A study of Homo sapiens with 4 samples.

Results

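The dual-specificity MAP kinase phosphatases are the genes DUSP1, DUSP2, DUSP4, DUSP5, DUSP6, DUSP7, DUSP8, DUSP10, DUSP14 and DUSP16. They were picked by gene symbol from the authors' deposited table, a comparison of CFL1 knockout with control, where all 10 were found among 59885 genes. The family was picked with the rise of DUSP2 in this comparison already known, so its values there are given as a description and not as a test of the family. RNA came from PANC-1, by the labels a human line of pancreatic ductal adenocarcinoma, in 2 control libraries (control1 and control2) and 2 libraries with the genotype KO CFL1. CFL1 encodes cofilin-1, which severs actin filaments. The labels name no guide, clone or culture for the knockouts and no treatment of the controls, and do not say whether libraries of a group came from separate cultures, so p-values measure only the spread between these libraries, which for the knockouts may be technical. The deposited table has no column for a single library. Reads per library were recovered from its base means (the normalized count averaged over all 4 libraries). The recovered libraries are called X and Y within each group, letters that do not map to the numbers in the labels.

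MAP kinases (ERK, JNK and p38) are switched on by phosphorylation of a threonine and a tyrosine in their activation loop, and dual-specificity phosphatases remove both phosphates. DUSP1, DUSP2, DUSP4 and DUSP5 are nuclear and are transcribed as early genes after growth factors or stress, DUSP6 and DUSP7 are cytoplasmic and prefer ERK, and DUSP8, DUSP10 and DUSP16 prefer JNK and p38. DUSP14 lacks the MAP kinase-binding domain of the others. Transcription of several of these genes follows ERK activity and forms a negative feedback on it.

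Control Y differed from the other 3 libraries across the genome, and this touches most values below and each deposited fold change. The labels give all 4 libraries as PANC-1. Whether control Y and the other 3 libraries are of the same line, and which of them are PANC-1, was not tested. The controls were over 4-fold apart at 3608 genes, the knockouts at 128. Over the 17134 recovered genes whose base mean reached 10, Pearson's r on log2(normalized count + 1) was 0.71 for the controls, 0.98 for control X with each knockout and 0.99 between knockout X and knockout Y; control Y had 0.70 with each knockout. Each r is taken over genes, and genes are no replicates of a condition. Recovered reads, for genes under a base mean of 10000, summed to between 12345516 and 14632026 per library. CFL1 fell: its normalized counts were 6276 in control X, 13761 in control Y, 2285 in knockout X and 2487 in knockout Y, and DESeq2 gave it an adjusted p of 0.00168 in the authors' deposited table. Of the 6 markers listed for epithelial cells and this line, KRT8, KRT18 and VIM had base means over 10000 in the authors' deposited table. EPCAM was low, with a base mean of 18.0. It had 6.36 normalized counts in control X, 42.5 in control Y, 7.08 in knockout X and 16.2 in knockout Y. The ductal keratin KRT19 had 1.82 normalized counts in control X, 2481 in control Y and 0 in each knockout, whereas KRT7 had 3551, 108, 4000 and 3683 in the same order. The leukocyte, endothelial and acinar lists had no gene with a base mean of 100 or more. Of the 4 fibroblast markers 2 did, COL1A1 and PDGFRB, which went opposite ways between the controls. PDGFRB had 513 normalized counts in control X, 6.71 in control Y, 439 in knockout X and 451 in knockout Y. COL1A1 had 354, 1574, 687 and 556 in the same order. What this division between the controls contributes to the phosphatase values was not tested, so the members are given against each control. In bulk RNA, fewer cells of a kind and less RNA per cell cannot be told apart.

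DUSP2, also called PAC1, a nuclear phosphatase first known from activated lymphocytes, was the family member called in the deposited comparison. It had 121 normalized counts in control X and 105 in control Y, then 347 in knockout X and 317 in knockout Y. The knockouts lay well above both controls, and libraries of a group lay close together. The 95% exact Poisson intervals of the controls reached up to 143 and 129, and those of the knockouts down to 314 and 282, which covers counting error only. The mean of the knockouts was 2.75-fold control X and 3.16-fold control Y. In the authors' deposited table DUSP2 stood at 1.55 ± 0.310 (log2 fold change ± standard error), and its adjusted p by DESeq2 was 0.000398. Of the 10 members 1 had an adjusted p under 0.05, and it rose. Among all 16629 genes that carry an adjusted p, the share called was 0.559%, the share called as higher 0.138% and the share called as lower 0.421%. limma, fitted across all 24817 genes with recovered reads, did not call DUSP2 (log2 difference 1.55, unadjusted p 0.00928, adjusted p 0.722) and called 0 genes in all, with 495 at an unadjusted p under 0.05. DUSP2 was also the 1 member with both knockouts at least 2-fold above both controls, as were 0.945% of genes from a base mean of 10 upward.

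DUSP1, or MKP-1, the stress- and growth factor-induced phosphatase that acts on p38, JNK and ERK, had the highest base mean of the family. Its normalized counts were 2566 in control X, 3397 in control Y, 3806 in knockout X and 4194 in knockout Y. Both knockouts were above both controls, but control Y lay nearer to knockout X than to control X. As a difference of log2(normalized count + 1), the mean of the knockouts was 0.64 above control X and 0.23 above control Y, and the controls were 0.40 apart. DUSP1 did not pass in the authors' deposited table, at 0.42 ± 0.253 and 0.471 as the adjusted p by DESeq2.

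DUSP4, or MKP-2, a nuclear phosphatase of ERK and JNK, differed far more between the controls than between the knockouts and control X. Its normalized count was 1683 in control X but 52.5 in control Y, from 47 reads. Knockout X had 2128 and knockout Y 2147. Control X was 32.0-fold above control Y, while the knockouts were 1.27-fold above control X and 40.7-fold above control Y. The authors' deposited table puts DUSP4 at 1.30 ± 1.76 on the log2 scale, with 0.747 as the DESeq2 adjusted p. The same reads gave a difference of mean logs of 2.83, because the deposited value compares means of counts and a mean of logs weighs the low control more.

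DUSP5, the nuclear phosphatase with ERK as its main substrate, went the other way between the controls. Control X had 397 normalized counts and control Y 3959, and the knockouts had 609 (X) and 648 (Y). The knockouts thus lay between the controls, 1.58-fold above control X and 6.30-fold below control Y. DUSP5 stood at -1.79 ± 0.955 in the authors' deposited table, not called (DESeq2 adjusted p 0.419). The sign rested on control Y: the log2 difference was 0.66 without control Y and -2.65 without control X.

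**Figure D1:**
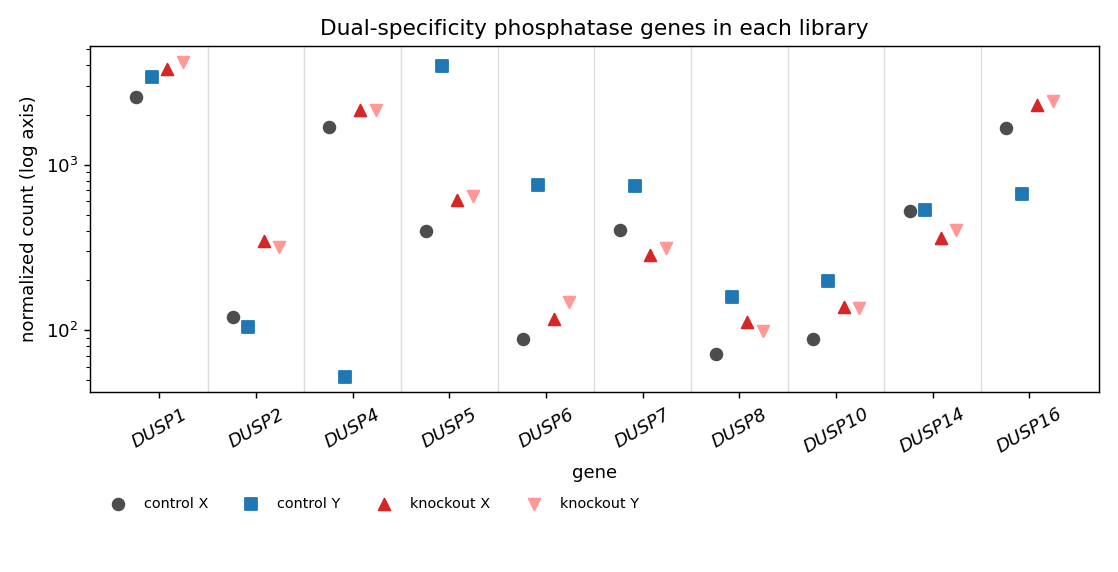
Normalized counts (log axis) of the 10 phosphatase genes in control X (circles), control Y (squares) and the knockouts X and Y (triangles up and down), 1 point per library. Both knockouts lie above both controls for DUSP1, DUSP2, DUSP4 and DUSP16 and below both for DUSP7 and DUSP14, and control Y is the lowest library for DUSP4 at 52.5 and the highest for DUSP5 at 3959.

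Upstream sequence was used for 8 of the 10 members, without DUSP4 and DUSP5, as windows of 300 bases from 250 before to 50 after the annotated start (RefSeq, GRCh38.p14, a build other than the authors' hg19). The windows of DUSP2, the called member, DUSP1, the most abundant, and DUSP8 are shown because they hold the cyclic AMP response element TGACGTCA or the E-box CACGTG, which are in capitals. They read 5′ to 3′ on the gene's strand and lie at chr2:96145391-96145690 (DUSP2), chr5:172771146-172771445 (DUSP1) and chr11:1572222-1572521 (DUSP8), all on the minus strand.
DUSP2: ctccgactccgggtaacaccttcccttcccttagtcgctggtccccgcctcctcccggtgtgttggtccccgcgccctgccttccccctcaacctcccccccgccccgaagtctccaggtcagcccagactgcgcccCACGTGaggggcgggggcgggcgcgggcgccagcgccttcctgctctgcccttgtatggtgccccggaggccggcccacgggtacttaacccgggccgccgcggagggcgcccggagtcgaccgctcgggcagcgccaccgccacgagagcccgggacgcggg
DUSP1: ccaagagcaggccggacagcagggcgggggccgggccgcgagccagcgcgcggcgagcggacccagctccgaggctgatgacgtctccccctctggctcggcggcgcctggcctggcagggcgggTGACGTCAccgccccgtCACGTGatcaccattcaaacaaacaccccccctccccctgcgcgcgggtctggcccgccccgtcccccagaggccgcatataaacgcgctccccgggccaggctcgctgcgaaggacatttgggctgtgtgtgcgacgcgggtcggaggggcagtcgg
DUSP8: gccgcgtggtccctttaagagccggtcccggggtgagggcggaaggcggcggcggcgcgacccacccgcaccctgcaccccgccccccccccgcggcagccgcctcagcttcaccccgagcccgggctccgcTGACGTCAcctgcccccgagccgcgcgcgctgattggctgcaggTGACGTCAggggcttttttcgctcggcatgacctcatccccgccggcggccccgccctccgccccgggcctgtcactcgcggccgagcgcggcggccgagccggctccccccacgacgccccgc
The element TGACGTCA reads the same on both strands. It stood in the DUSP1 window at bases -125 to -118, counted from a start base of 0, and at 2 places in the DUSP8 window, -118 to -111 and -74 to -67. It was in 2 of the 8 members and in 1.85% of 35116 windows of this length. CACGTG, also its own reverse complement, was in the windows of DUSP1 and DUSP2 and in 7.26% of all. No window of the 8 members held the AP-1 site TGANTCA, the extended ETS site CCGGAA or a CArG box, searched on both strands. Of all windows 7.71%, 17.2% and 1.29% held them, in that order. The shorter ETS core GGAA was not searched for. The DUSP8 window shown holds it, and the DUSP2 window shown holds its reverse complement TTCC. The GC box GGGCGG was in 7 of 8 members, all but DUSP6, and in 45% of all windows. GC content ran from 73.3% to 81% in the windows of DUSP1, DUSP2, DUSP7, DUSP8, DUSP14 and DUSP16. It was 58.3% for DUSP6 and 55% in each window of DUSP10, beside a median of 58.7% over all windows. What this contributes to the GC box count was not tested. The 8 members had 9 windows, as DUSP10 had more than 1, whereas the shares of all are per window. The DUSP1 window alone among the 8 held TATAAA, at -30 to -25, as did 11.5% of all. These matches are letters in a window and say nothing of binding in these cells.

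Of the cytoplasmic ERK phosphatases, DUSP6, or MKP-3, a feedback gene of ERK signalling, followed the pattern of DUSP5. It had 89.1 normalized counts in control X, 750 in control Y, 117 in knockout X and 148 in knockout Y. Control Y was 8.42-fold above control X, and both knockouts lay between them, nearer to control X. DUSP6 is listed at -1.66 ± 0.986 in the authors' deposited table (DESeq2 adjusted p 0.469), while its knockouts were 1.49-fold above control X and 5.67-fold below control Y. DUSP7, or MKP-X, had 404 normalized counts in control X, 749 in control Y, 285 in knockout X and 315 in knockout Y. Both knockouts were below both controls, at a log2 difference of -0.43 from control X and -1.32 from control Y. DUSP7 did not pass either, at -0.94 ± 0.435 in the authors' deposited table and 0.345 as the DESeq2 adjusted p.

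Of the JNK and p38 phosphatases, DUSP16, or MKP-7, had 1663 normalized counts in control X, 666 in control Y, 2281 in knockout X and 2434 in knockout Y. The knockouts were 1.42-fold above control X and 3.54-fold above control Y. Its log2 value in the authors' deposited table was 1.02 ± 0.510, with 0.388 as the DESeq2 adjusted p. DUSP10, or MKP-5, had 88.2 normalized counts in control X, 199 in control Y, 139 in knockout X and 136 in knockout Y. DUSP8 had 71.8, 159, 112 and 99.2 normalized counts in the same order. For DUSP10 and DUSP8 the knockouts lay between the controls, and the authors' deposited table lists them near 0, at -0.06 ± 0.583 and -0.12 ± 0.60 (DESeq2 adjusted p 0.966 and 0.931). The log2 differences of DUSP10 and DUSP8 were 0.63 and 0.55 from control X and -0.53 and -0.58 from control Y. The pseudogene DUSP8P5 had 80.9 normalized counts in control X, 87.2 in control Y, 91.2 in knockout X and 65.8 in knockout Y. This is near the level of DUSP8, so the division of reads between the pair is uncertain. The pseudogene DUSP5P1 had between 15.6 and 37.3, far below DUSP5.

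DUSP14, or MKP-6, had its 2 lowest values in the knockouts, while the controls hardly differed at this gene. Its normalized counts were 529 in control X, 534 in control Y, 359 in knockout X and 404 in knockout Y. The log2 difference was -0.47 from control X and -0.49 from control Y, while the knockouts were 0.17 apart and the controls 0.01. DUSP14 was not called in the authors' deposited table (-0.48 ± 0.235, DESeq2 adjusted p 0.378). Scaled to library totals in place of size factors, the difference of DUSP14 was -0.49 from control X and -0.20 from control Y.

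**Figure D2:**
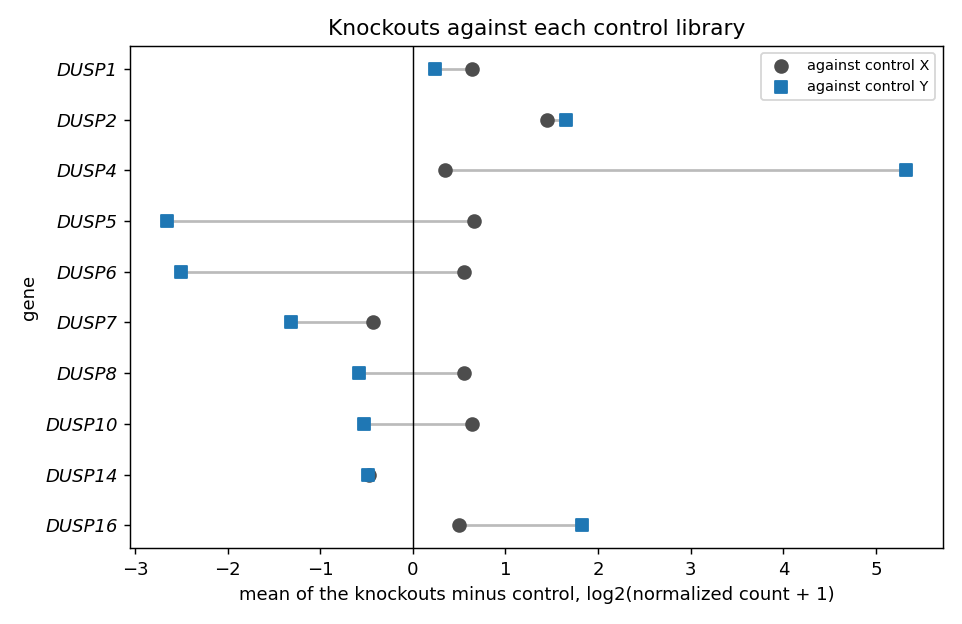
Mean of the 2 knockouts minus control X (circles) or control Y (squares) for each gene, as differences of log2(normalized count + 1), with a grey line joining the pair, under size factors. The 2 points nearly coincide for DUSP14 and lie at 1.45 and 1.65 for DUSP2, while those of DUSP5, DUSP6, DUSP8 and DUSP10 fall on opposite sides of 0.

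Over the family, both knockouts were above both controls for 4 members (DUSP1, DUSP2, DUSP4 and DUSP16), as for 23.9% of 16453 tested genes with recovered reads, and below both for 2 members (DUSP7 and DUSP14), as for 21.1%. For 6 of 10 members the groups did not overlap, against 45% of tested genes. By the authors' own mark, an unadjusted p under 0.05 in the authors' deposited table, 4 members were marked, against 7.62% of genes with a p. These are 30831 genes and include low genes without an adjusted p, unlike the members. DUSP2 and DUSP16 were marked as upregulated, as 1.97% of genes were, and DUSP7 and DUSP14 as downregulated, as 5.65% were. The median log2 fold change of the 10 members there was -0.09, beside -0.02 over tested genes with reads.

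Measured from control X alone, both knockouts were higher for 8 of 10 members and lower for DUSP7 and DUSP14, where 40.4% and 38.2% of genes from a base mean of 10 upward were. For the same 8 members both knockouts were at least 1.2-fold above control X, as for 19.4% of genes. For 3 of them, DUSP2, DUSP5 and DUSP10, both were at least 1.5-fold above, as for 7.86% of genes. From control Y both knockouts were higher for 4 members and lower for 6, where 47.1% and 45.8% of genes were. The median log2 difference of the members was 0.55 from control X and -0.51 from control Y, where the medians of all tested genes were 0.01 and 0.01. Control X is 1 library, so no replicate measures its error. For DUSP6 and DUSP8 the 95% Poisson interval of control X overlapped that of 1 knockout, so counting error alone touches these rises. Scaling by the total of recovered reads in place of size factors moved the median of all genes by 0.28 from control Y and by -0.01 from control X. By mean log2 difference, 8 members were then still higher than control X and 4 higher than control Y.

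The controls were at least 4-fold apart for 3 members, DUSP4, DUSP5 and DUSP6, as for 21.1% of genes from a base mean of 10 upward, and at least 2-fold apart for 6, as for 45%. Between the knockouts the median size of the log2 difference was 0.14 over the members, beside 0.15 over all tested genes, with a range from -0.18 for DUSP8 to 0.34 for DUSP6. Among all pairs of members, DUSP8 and DUSP10 had the most similar profiles over the 4 libraries, with a Euclidean distance of 0.13 between centred log2 values. DUSP5 and DUSP6 came next with 0.25.

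Levels of different genes were compared as normalized counts per kb of the longest protein-coding transcript (GENCODE release 29). DUSP1 was first in every library, at 1271 per kb in control X, 1682 in control Y, 1885 in knockout X and 2077 in knockout Y. In control X and in both knockouts DUSP16 and DUSP4 followed, at 317 and 304 per kb in control X, 434 and 384 in knockout X and 463 and 388 in knockout Y. In control Y DUSP5 came next after DUSP1, at 1548 per kb, and DUSP4 was last at 9.49. DUSP2 took rank 7 in control X at 71.6 per kb, rank 8 in control Y at 62.2 and rank 5 in both knockouts, at 206 and 188. DUSP8 was the lowest member in control X and in both knockouts, with 25.1 and 22.1 per kb in the knockouts. With 2 libraries a group, neighbours in the order such as DUSP16 and DUSP4 were not tested against each other. DUSP5 made up 37.1% of the summed level per kb in control Y and from 6.10% to 6.81% in the other 3 libraries. DUSP4 made up 0.227% in control Y and from 10.3% to 11.9% elsewhere.

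**Figure D3:**
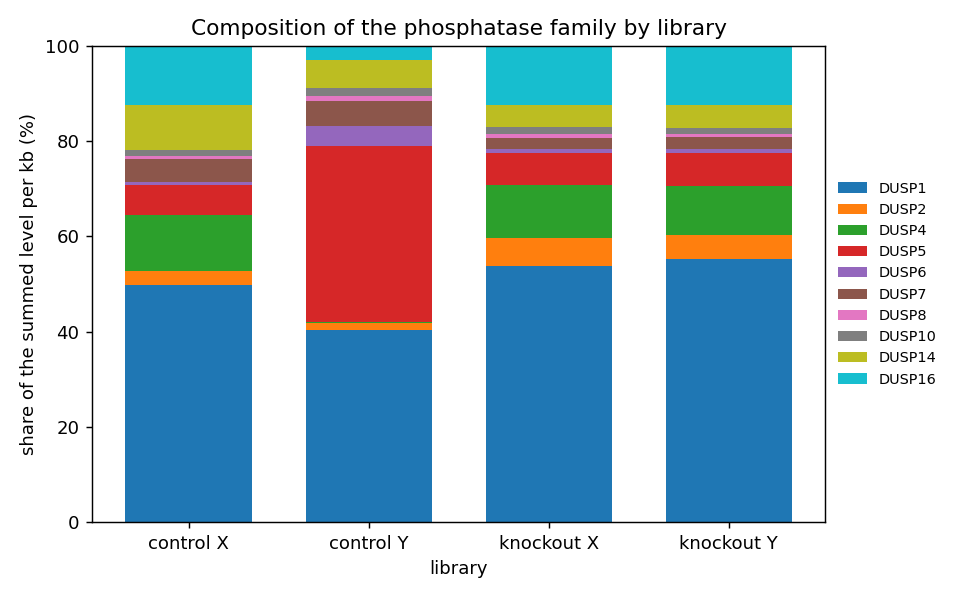
Share (%) of each gene in the summed normalized count per kb of the 10 phosphatases, 1 bar per library. DUSP1 holds between 40.3% and 55.3% of each bar, DUSP5 takes 37.1% in control Y, and in control X and the knockouts DUSP4 and DUSP16 each hold more than 10%.

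The genes whose profile lay nearest to that of DUSP2 over the 4 libraries, among 11461 from a base mean of 100 upward, were SCARNA10, a small Cajal body RNA, the transcript RP11-298I3.5 and the histone gene HIST1H3C. Their Euclidean distances between centred log2 values were 0.29, 0.30 and 0.34. HIST1H3C had 1431 normalized counts in control X, 963 in control Y, 3768 in knockout X and 2829 in knockout Y. Nearest to DUSP1 were TMEM160, SLC6A6, a taurine transporter gene, and FOXK1, a forkhead transcription factor gene, at 0.04, 0.06 and 0.07.

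The rest of the pathway was described from 53 genes listed by function, of which 47 carried an adjusted p, with 1 called higher and 1 called lower in the authors' deposited table. Among the 9 MAP kinase genes tested, 0 were called. The highest and lowest log2 values were 0.43 for MAPK12 and -0.47 for MAPK13, both p38 genes, in the authors' deposited table (DESeq2 adjusted p 0.679 and 0.763). MAPK12 had a log2 difference of 0.03 from control X and 0.97 from control Y, and MAPK13 one of 0.41 and -1.03. The MAP kinase list had a median log2 difference of 0.03 from control X and of -0.49 from control Y.

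Among 13 RAS, RAF and MAP2K genes 1 fell and 0 rose. NRAS, a RAS gene, had 2866 normalized counts in control X, 4312 in control Y, 1167 in knockout X and 1557 in knockout Y, and the log2 difference of the knockouts was -1.09 from control X and -1.68 from control Y. NRAS stood at -1.40 ± 0.343 in the authors' deposited table, with 0.0116 as the DESeq2 adjusted p. MAP2K6, a kinase of p38, had 994 normalized counts in control X, 3.35 in control Y (3 reads), 1016 in knockout X and 1071 in knockout Y. MAP2K3, with the same substrate, had 786, 6971, 938 and 884 in the same order, so its knockouts lay between the controls, 0.21 above control X on the log2 scale. Neither was called, at 1.06 and -2.09 in the authors' deposited table (DESeq2 adjusted p 0.845 and 0.315). This list had a median log2 difference of 0.06 from control X and of -0.67 from control Y.

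Sprouty and Spred genes, which like the phosphatases restrain ERK signalling and are induced by it, were not called (0 of 6). All 6 were higher in control Y than in control X, by a median of 2.05 on the log2 scale. SPRY4 had 88.2 normalized counts in control X, 3256 in control Y, 124 in knockout X and 148 in knockout Y. It stood at -3.62 in the authors' deposited table (DESeq2 adjusted p 0.386), but the sign turned with the control, with a log2 difference of 0.61 from control X and -4.58 from control Y. SPRED2, the most abundant by base mean, had 592, 3766, 544 and 604 in the same order. Another Spred gene was higher than SPRED2 in control X and in both knockouts. SPRED2 stood at -1.92 in the authors' deposited table (DESeq2 adjusted p 0.305). The list had a median log2 difference of 0.09 from control X and of -2.01 from control Y. Of the 10 phosphatase members 7 were higher in control Y than in control X. The gap was largest for DUSP5 and DUSP6, and for DUSP14 it was only 0.01 on the log2 scale. The other 3 were lower, by most for DUSP4. Of all tested genes with recovered reads 49.7% were higher in control Y.

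Among 10 other tested genes that follow ERK activity 1 rose and 0 fell. EGR1, an early growth response transcription factor, had 605 normalized counts in control X, 658 in control Y, 1279 in knockout X and 1507 in knockout Y, and stood at 1.14 ± 0.225 in the authors' deposited table (DESeq2 adjusted p 0.000384). FOS, an AP-1 subunit gene, had 1826 normalized counts in control X, 425 in control Y, 4072 in knockout X and 5217 in knockout Y, a log2 difference of 1.34 from control X and 3.44 from control Y. FOS was not called, at 2.04 in the authors' deposited table (DESeq2 adjusted p 0.170). FOSL1, another AP-1 gene, had 78.2 normalized counts in control X, 2344 in control Y, 90.3 in knockout X and 73.3 in knockout Y. It stood at -3.89 in the authors' deposited table (DESeq2 adjusted p 0.333), with a log2 difference of 0.06 from control X and -4.83 from control Y. In this list 6 of 10 genes were at least 4-fold apart between the controls, as were 21.1% of genes from a base mean of 10 upward. The list had a median log2 difference of 0.26 from control X and of -1.88 from control Y.

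**Figure D4:**
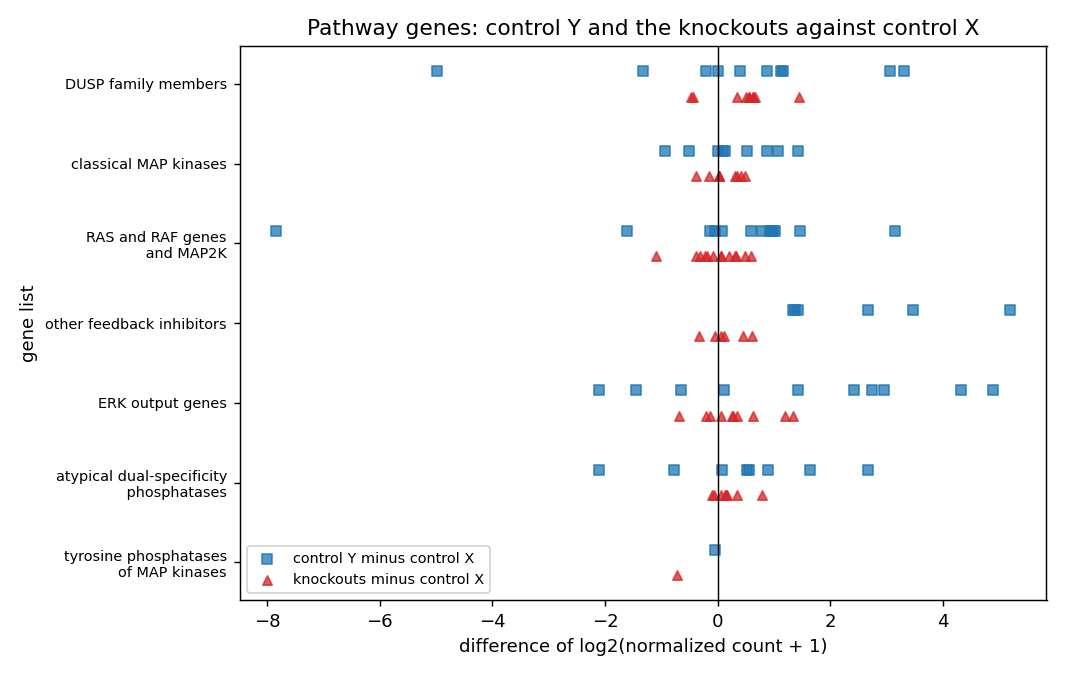
Differences of log2(normalized count + 1) for genes from a base mean of 10 upward, by list, as control Y minus control X (squares) and the mean of the knockouts minus control X (triangles), 1 point per gene. The triangles spread less than the squares in each list with more than 1 gene, and among the other feedback inhibitors all 6 squares lie to the right of 0.

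The atypical phosphatases of the same superfamily, many of which act on substrates other than MAP kinases, had 0 called of 8 tested. DUSP3, the most abundant, had 1578 normalized counts in control X, 919 in control Y, 1966 in knockout X and 2047 in knockout Y, and the highest log2 value of its list, 0.68, in the authors' deposited table (DESeq2 adjusted p 0.418). DUSP18 had 75.4, 484, 84.1 and 80.9 in the same order, and the lowest log2 value among those from a base mean of 100 upward, -1.76, in the authors' deposited table (DESeq2 adjusted p 0.417). Its log2 difference was 0.13 from control X and -2.54 from control Y. This list had a median log2 difference of 0.14 from control X and of -0.56 from control Y. Of the tyrosine phosphatases of MAP kinases 1 was tested, PTPRR, which had a base mean of 13.6 and was not called in the authors' deposited table (DESeq2 adjusted p 0.679). DUSP9, or MKP-4, belongs to the same family and is not among the 10, and was looked at after its values were seen. It had 92.7 normalized counts in control X, 77.1 in control Y, 68.2 in knockout X and 70.1 in knockout Y.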

How the data were processed

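Gene expression was measured by RNA sequencing of 4 libraries of total RNA. cutadapt, FastQC, STAR, RSEM and hg19 are named, without versions or order, per the submitters' processing notes. The deposited file is the authors' DESeq2 result table. Its base mean, a signal, averages counts over size factors, as deposited by the authors. Its fold changes and standard errors are on the log2 scale and unshrunken, as the authors deposited them. The Wald score and the p-value columns are those the authors deposited.

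Whole reads per library were recovered from base means printed to 15 digits, for 24817 of 24824 genes between base means of 1 and 10000. Solutions had to give the deposited log2 fold change within 0.0002 at the dispersion its standard error implies, except for 2198 genes with a single solution and at most 10 reads in a group. The largest error among the 10 members was 1.1e-05. Base means shifted on purpose gave a solution for 0 of 150 in each range below 3000 and for 5 of 150 between 3000 and 10000, where DUSP1, CFL1, SLC6A6 and FOXK1 lie. RSEM estimates counts, so these are its rounded estimates. Normalized counts are these reads over the size factors. Differences are of log2(normalized count + 1), which understates changes of low genes. limma 3.58.1 (R 4.3.3) and the recovery were tested on simulated data. Python 3.11.15, numpy 2.4.6, pandas 2.3.3, scipy 1.17.1, numba 0.67.0 and matplotlib 3.10.9 were used.

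The members, lists and tests were chosen with earlier results of these data known. Called means the authors' adjusted p under 0.05. Named genes are all members, CFL1, the called or else most abundant gene of each list, its largest rise and fall from a base mean of 100 upward, and the 3 genes nearest in profile to DUSP2 and DUSP1. A gene that this rule names is not reported here.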

Additional observations from a re-analysis of the deposited data

How the results depend on the processing

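No paired analysis was possible because the deposited table has no column per library and the recovered libraries carry no number. DUSP2 was the member called with no independent filtering, with base means from 10 or from 100 upward and at an adjusted p under 0.01 (1 member each). All of these settings reuse the deposited p-values, so they are no separate support for DUSP2. The authors' mark gave 4 members, and 16 pathway genes against 2 called. Of genes with a p 7.62% were marked, and of genes with an adjusted p 0.559% were called. limma on the recovered reads called 0 members and 0 genes with all 4 libraries, with 1 member and 495 genes at an unadjusted p under 0.05, and DUSP2 then had an adjusted p of 0.722. Leaving out 1 library, an alternative chosen after seeing the data, gave from 0 to 6 called members. There were 6 without control X, where limma called 33.5% of genes, and 0 without control Y or without either knockout. At an unadjusted p under 0.05 these last fits held 6, 0 and 0 members, and 3195, 81 and 78 genes. A lone library was assumed to vary like the other group. With a library left out, members were counted whose remaining knockouts lay above the remaining controls. There were 4 without control X (47.2% of genes) and 8 without control Y (40.8%). There were 4 without knockout X (30.3%) and 4 without knockout Y (30.3%). The median log2 difference of the members, 0.02, was from -0.51 to 0.55 when a library was left out, the extremes being without control X and without control Y, and from -0.09 to 0.15 under the other settings. For single members 7 of 70 alternatives changed the sign, for DUSP5, DUSP6, DUSP8 and DUSP10, and scaling to library totals moved DUSP2 from 1.55 to 1.68 and DUSP14 from -0.48 to -0.34, past their spread between libraries. Counts limit DUSP4 in control Y (47 reads, 38.6 to 69.9 normalized counts by the 95% Poisson interval).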
